A study of Homo sapiens with 6 samples.

Results

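The genes described here encode enzymes and helper proteins that crosslink and process collagen: the lysyl oxidases LOX, LOXL1, LOXL2, LOXL3 and LOXL4, the transglutaminase TGM2, the collagen chaperone SERPINH1, the procollagen C-proteinase BMP1 and its enhancer PCOLCE. These 9 genes were taken by name, out of 60675 gene identifiers counted in each library. The rule that lists them uses no measured value, but the list was drawn up with earlier results of these data known. Their transcripts were measured by RNA-seq in MDA-MB-231 cells, a human breast cancer line of triple-negative type and mesenchymal character, so all values come from 1 line. Control wells (n = 3) had no added vitamin C, and vitamin C wells (n = 3) were given sodium ascorbate at 100 μM for 3 days, with the medium of the cells changed every day. RNA was depleted of ribosomal RNA before sequencing. The comparison asks which of the 9 transcripts differed between treated and untreated cells.

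Fibrillar collagen is made as procollagen, which folds in the endoplasmic reticulum, is exported, loses its end peptides and assembles into fibrils that are then crosslinked. SERPINH1, also called HSP47, binds the folded procollagen triple helix in the endoplasmic reticulum. BMP1 removes the C-terminal propeptide, and PCOLCE speeds that cut. BMP1 and related proteinases also cleave the LOX precursor into its active form. Lysyl oxidases are copper enzymes that oxidise lysine side chains of collagen and elastin, from which crosslinks form. TGM2 joins glutamine to lysine side chains and has fibronectin and collagen among its substrates. Vitamin C is known in this pathway as a cofactor of the prolyl and lysyl hydroxylases, which act on procollagen before the steps served by these 9 genes.

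Read pairs counted in genes ran from 17664345 to 22373591 in control wells and from 13434130 to 19553914 in treated wells. Unmapped read pairs made up 24.2% to 34.4% of a control library, 40.7% and 49.5% of vitamin C 1 and 2, and 24.7% of vitamin C 3. Levels are CPM, read counts scaled to a common library total with TMM factors. All 6 markers of a mesenchymal breast line were at 1 CPM or more in every library, and 4 of 8 luminal markers were too, while the luminal genes ESR1, PGR and FOXA1 were at or near 0. The summed level of the 6 mesenchymal markers was 4340 to 4649 CPM in control and 4171 to 4700 CPM in vitamin C wells. Neither edgeR nor DESeq2 called any of the 6. For 2 of them all vitamin C wells were under all control wells, as for 16.6% of all genes tested, and for 0 above. By both edgeR and DESeq2, 2 of 5 tested luminal markers were called higher, EPCAM (22.0 ± 1.06 CPM in control, 34.9 ± 0.554 CPM in vitamin C wells, edgeR adjusted p 0.00343) and KRT8 (142 ± 13.3 and 188 ± 7.84 CPM, edgeR adjusted p 0.0220). Over all genes, edgeR called 3.6% of 15261 higher, DESeq2 called 586 of 13472 higher, and both tools called 455 higher. The summed level of 8 luminal markers was 342 to 416 CPM in control and 423 to 495 CPM in vitamin C wells. That of 6 fibroblast markers was 6.72 to 10.8 CPM in control and 12.7 to 14.4 CPM in vitamin C wells, most of it PDGFRB, with DCN and THY1 at 0 in every library. That of 3 endothelial markers was 0.740 to 1.34 CPM in control and 2.03 to 2.22 CPM in vitamin C wells, with CDH5 and VWF near 0, and that of 3 leukocyte markers was at most 0.448 CPM. Of the 3 endothelial markers 1 was tested, PECAM1, which was called higher by edgeR alone (edgeR adjusted p 0.0439). Of the 6 fibroblast markers 2 were tested, and 1 of them, PDGFRB, was called higher by DESeq2 alone (DESeq2 adjusted p 0.0244). The part of these marker differences in the results below was not tested. In bulk RNA, fewer cells of a type and less RNA per cell cannot be told apart. Nothing in the labels says that the 3 wells of a group came from separate cultures, so the p-values rest on a spread between wells that may be technical.

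TGM2 and LOXL3 transcripts were higher in the vitamin C wells, and the other 6 genes that could be tested did not pass the test. The quasi-likelihood test of edgeR was run on 15261 genes, with p adjusted by the Benjamini-Hochberg method. Of these genes, 3.6% were called higher at an adjusted p under 0.05 and 3.48% were called lower. Of the 9 genes, 8 passed the filter on low counts, 2 were called higher and 0 were called lower. The count of 0 lower was also 0 by DESeq2 and 0 at an unadjusted p under 0.05, which 14.3% of all genes tested met with vitamin C higher and 13.1% with vitamin C lower. With DESeq2 as well, which the study required beside edgeR before it named a gene, 1 gene, TGM2, was called higher. The median log2 fold change of the 8 tested genes was 0.07, against 0.02 over all genes tested. The control and vitamin C libraries did not overlap for 2 of the 8 genes, again TGM2 and LOXL3, both with vitamin C higher. Over all genes tested, 15.7% had groups that did not overlap with vitamin C higher and 16.6% with vitamin C lower.

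**Figure D1:**
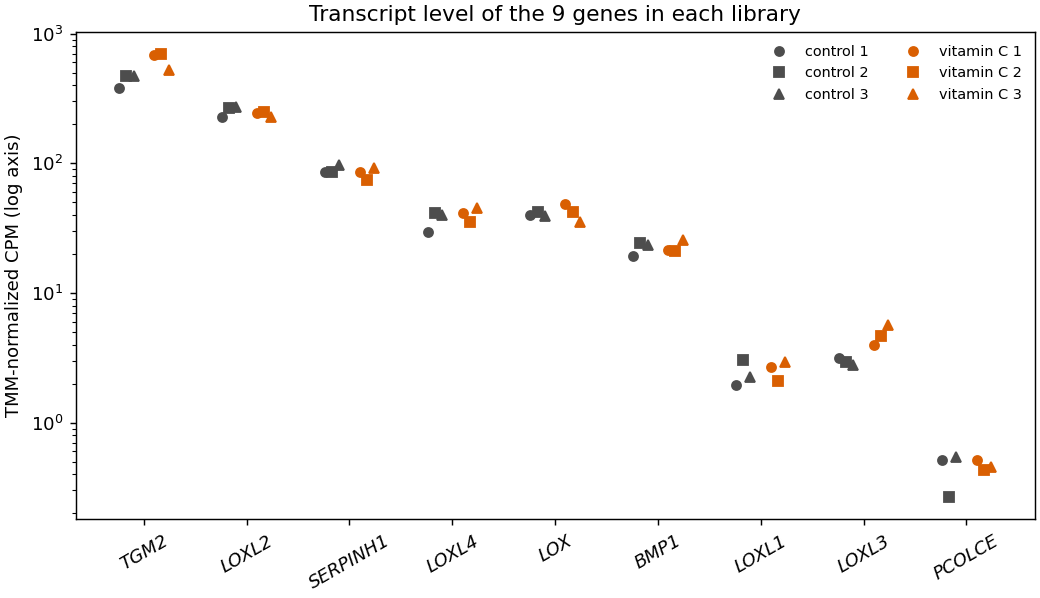
Level of each of the 9 genes in each library in TMM-normalized CPM, on a log axis, with control wells in grey and vitamin C wells in orange (circle, square and triangle for replicates 1, 2 and 3). TGM2 lies highest, with vitamin C points from 520 to 692 CPM above control points from 378 to 472 CPM, and PCOLCE lies lowest, under 1 CPM in all 6 libraries.

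TGM2 (ENSG00000198959, chr20:38127385-38166578 on GRCh38, minus strand) was the most abundant of the 9 transcripts and rose 1.44-fold (95% interval 1.20 to 1.72). Its level was 378, 472 and 469 CPM in control 1, 2 and 3, and 685, 692 and 520 CPM in vitamin C 1, 2 and 3. The lowest treated well, vitamin C 3, was above the highest control well, and control 1 lay below the other control wells. The group means were 440 ± 53.7 CPM (SD, n = 3) in control and 632 ± 97.2 CPM (SD, n = 3) in vitamin C wells. The log2 fold change was 0.52 (SE 0.119), with an edgeR adjusted p of 0.0309 and a DESeq2 adjusted p of 0.000728. The call was lost with any 1 of 4 libraries left out. The log2 fold change and edgeR adjusted p were 0.42 and 0.126 without control 1, 0.57 and 0.0755 without control 2, 0.46 and 0.0886 without treated well 1, and 0.45 and 0.0644 without treated well 2. It held without control 3 (edgeR adjusted p 0.0468) and without vitamin C 3 (0.00265), and the log2 fold change stayed between 0.42 and 0.65.

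The share of reads that did not map also differed between the libraries. Control 1 and vitamin C 3, each with the lowest TGM2 level of its group, had the lowest unmapped shares, 24.2% and 24.7%. Vitamin C 1 and 2, with the highest TGM2 levels, had the highest shares, 40.7% and 49.5%. The part of the unmapped share in the TGM2 difference was not tested. Without the library with the most unmapped reads in each group, control 2 and vitamin C 2, the TGM2 log2 fold change was 0.51 with an edgeR adjusted p of 0.125. Of its exonic bases, 396 overlap RPRD1B on the opposite strand. RPRD1B was at 62.4 ± 3.75 CPM (SD, n = 3) in control and 63.0 ± 4.58 CPM (SD, n = 3) in vitamin C wells, and its log2 fold change was 0.01 (edgeR adjusted p 0.933). Whether reads were counted by strand is stated in none of the sources. Read pairs set apart as ambiguous, and counted in no gene, made up 1.12% to 1.79% of a library. How many pairs from such an overlap were set apart or counted in 1 gene is not given.

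LOXL3 (ENSG00000115318, chr2:74532258-74555690 on GRCh38, minus strand) encodes lysyl oxidase-like 3 and was the only lysyl oxidase gene called by edgeR. Its level was 3.13, 2.93 and 2.78 CPM in control 1, 2 and 3, and 4.0, 4.64 and 5.67 CPM in vitamin C 1, 2 and 3. All treated wells were above all control wells. These levels rest on 55, 66 and 56 counts in control 1, 2 and 3 and 54, 64 and 113 counts in the treated wells. The ratio of vitamin C to control was 1.63 (95% interval 1.24 to 2.15), with a log2 fold change of 0.71 (SE 0.180) and an edgeR adjusted p of 0.0403. DESeq2 gave an adjusted p of 0.0586, so LOXL3 did not meet the requirement of a call by both tools. With any 1 of the 6 libraries left out its log2 fold change was between 0.55 and 0.81 and its edgeR adjusted p between 0.0510 and 0.120, so the call was lost each time.

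**Figure D2:**
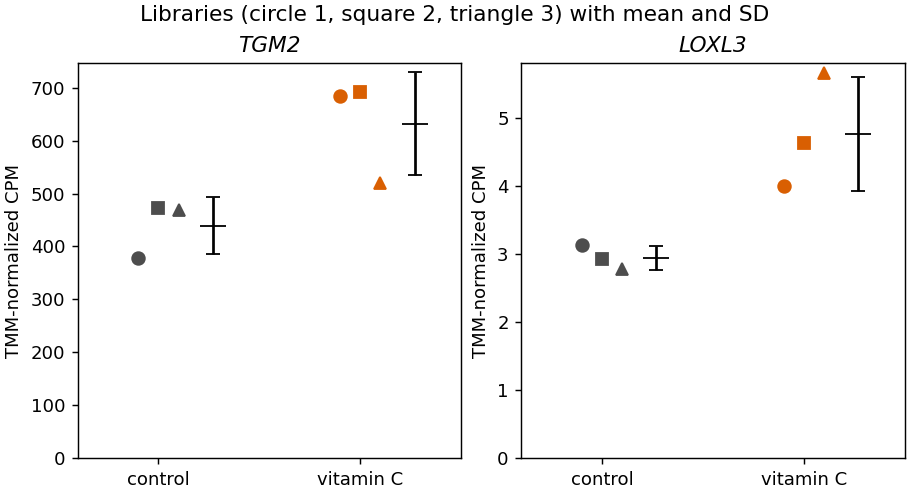
TGM2 (left) and LOXL3 (right) in TMM-normalized CPM, on linear axes from 0, for the 3 control and 3 vitamin C wells, with a bar for the group mean and its SD. Vitamin C 3 is the lowest treated well for TGM2 at 520 CPM and the highest for LOXL3 at 5.67 CPM.

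The exons of LOXL3 share 936 bases with HTRA2 and 216 bases with DOK1, both on the opposite strand. HTRA2 was at 23.1 ± 1.94 CPM (SD, n = 3) in control and 20.9 ± 2.62 CPM (SD, n = 3) in vitamin C wells (log2 fold change -0.14, edgeR adjusted p 0.463). DOK1 was at 4.75 ± 0.329 CPM (SD, n = 3) in control and 3.91 ± 1.04 CPM (SD, n = 3) in vitamin C wells (log2 fold change -0.26, edgeR adjusted p 0.414). Neither neighbour was called, and the control and treated wells of both overlapped. The part of shared reads in the LOXL3 difference was not tested.

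Sequence upstream of LOXL3 is shown for its 2 annotated starts, since both runs overlap DOK1 and the gene was the only called one of the 6 with an entry in the promoter table from RefSeq (build GRCh38.p14). The run at the downstream start of LOXL3 also overlaps exonic bases of LOXL3 itself. LOX and LOXL4, lysyl oxidase genes that were not called, are shown beside LOXL3. Each run reads 5′ to 3′ on the minus strand and keeps the part of the 250 upstream bases that no annotated untranslated region covers, and capitals mark CpG dinucleotides, the sites at which methyl and hydroxymethyl cytosine mostly occur. The runs are LOXL3 chr2:74553962-74554192, LOXL3 chr2:74549527-74549776, LOXL4 chr10:98268195-98268444 and LOX chr5:122078414-122078509.
LOXL3, upstream start: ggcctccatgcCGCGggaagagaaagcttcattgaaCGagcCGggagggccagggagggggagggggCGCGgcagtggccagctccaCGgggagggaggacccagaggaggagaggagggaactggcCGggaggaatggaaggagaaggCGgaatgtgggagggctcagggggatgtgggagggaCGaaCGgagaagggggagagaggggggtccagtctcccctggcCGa
LOXL3, downstream start: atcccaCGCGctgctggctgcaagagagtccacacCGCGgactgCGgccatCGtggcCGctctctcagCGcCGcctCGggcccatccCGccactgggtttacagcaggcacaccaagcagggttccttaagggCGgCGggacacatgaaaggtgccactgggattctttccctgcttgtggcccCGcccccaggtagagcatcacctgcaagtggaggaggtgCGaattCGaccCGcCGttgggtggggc
LOXL4: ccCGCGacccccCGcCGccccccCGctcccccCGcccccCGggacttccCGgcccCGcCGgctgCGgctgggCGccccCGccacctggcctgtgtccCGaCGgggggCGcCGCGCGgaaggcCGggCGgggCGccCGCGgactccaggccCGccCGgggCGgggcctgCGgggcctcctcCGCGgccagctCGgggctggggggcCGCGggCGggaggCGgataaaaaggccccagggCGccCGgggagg
LOX: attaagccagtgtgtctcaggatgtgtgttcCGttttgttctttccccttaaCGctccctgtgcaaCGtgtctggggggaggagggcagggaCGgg

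The LOXL4 run holds 37 CpG in 250 bases with a GC content of 86.4%, and 3.87% of 27305 genes have at least as many CpG in their 250 upstream bases, where the median is 11. The LOXL3 runs hold 12 CpG in 231 bases and 18 CpG in 250 bases, and the LOX run holds 4 CpG in 96 bases. LOX has 3 starts in the table, with 13, 18 and 19 CpG in their full 250 upstream bases, of which the shown run is part of the window with 13. Motifs were searched on both strands. The hypoxia-factor core ACGTG occurs 1 time in the shortened LOX run and 0 times in the other runs. In the full 250 bases of the 3 LOX starts it occurs 4, 1 and 1 times, and 18.7% of all promoters hold it in a window of that length. Its other form GCGTG occurs 1 time at the downstream LOXL3 start and 0, 1 and 1 times in the full windows of the LOX starts, and 31.9% of promoters hold it. The GC box GGGCGG occurs 6 times in the LOXL4 run and 2 times at the downstream LOXL3 start, and 42.3% of promoters hold it. The TATA box TATAAA, held by 11.1% of promoters, and the heat shock core GAANNTTC, held by 5.85%, occur 0 times in these 4 runs. These are matches of letters, and binding and methylation were not measured in these files.

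The transcripts of the other 4 lysyl oxidases did not pass the test, and their control and treated wells overlapped. LOXL2 (ENSG00000134013, chr8:23296897-23425328, minus strand), which oxidises collagen IV and other matrix substrates, was the most abundant of the family. Its level was 228, 269 and 272 CPM in control and 246, 249 and 227 CPM in vitamin C wells. The groups overlapped, with control 1 and vitamin C 3 at the bottom. The log2 fold change was -0.09 (SE 0.0853, edgeR adjusted p 0.521), and its 95% interval as a ratio ran from 0.825 to 1.07. LOX (ENSG00000113083, chr5:122063195-122078413, minus strand), the founding member, was at 40.0, 42.1 and 39.0 CPM in control and 48.1, 42.2 and 35.1 CPM in vitamin C wells. The treated wells lay on both sides of the control wells. The log2 fold change of LOX was 0.04 (SE 0.109, edgeR adjusted p 0.822), with a ratio interval from 0.875 to 1.22.

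LOXL4 (ENSG00000138131, chr10:98247690-98268194, minus strand), another collagen-oxidising member, was at 29.5, 41.1 and 40.2 CPM in control and 41.4, 35.0 and 44.8 CPM in vitamin C wells. Control 1 stood below the other 5 libraries, which were mixed. The log2 fold change was 0.13 (SE 0.131, edgeR adjusted p 0.551), with a ratio interval from 0.898 to 1.34. LOXL1 (ENSG00000129038, chr15:73925989-73952137, plus strand), known for elastin crosslinking, was at 1.94, 3.02 and 2.24 CPM in control and 2.67, 2.10 and 2.91 CPM in vitamin C wells. The groups overlapped fully, on a mean of 45.0 counts a library, and the log2 fold change was 0.09 (SE 0.226, edgeR adjusted p 0.820). The ratio interval of LOXL1, 0.757 to 1.5, was the widest of the 8 tested genes in proportion to its centre. The exons of LOX overlap SRFBP1, those of LOXL1 overlap LOXL1-AS1, those of LOXL2 overlap LOXL2-AS1 and ENTPD4, and those of LOXL4 overlap a long non-coding RNA, by 120 to 335 bases each.

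Of the genes that act before crosslinking, none passed the test. SERPINH1 (ENSG00000149257, chr11:75562056-75572783, plus strand), the collagen chaperone, was at 85.8, 85.6 and 97.8 CPM in control and 85.9, 74.6 and 91.6 CPM in vitamin C wells. The groups overlapped, and the log2 fold change was -0.09 (SE 0.0918, edgeR adjusted p 0.544, ratio interval 0.816 to 1.08). BMP1 (ENSG00000168487, chr8:22165140-22212326, plus strand), the C-proteinase, was at 19.4, 24.3 and 23.4 CPM in control and 21.6, 21.0 and 25.5 CPM in vitamin C wells. Its groups also overlapped, and the log2 fold change was 0.02 (SE 0.115, edgeR adjusted p 0.920, ratio interval 0.854 to 1.21). PCOLCE (ENSG00000106333, chr7:100602363-100608175, plus strand), the enhancer of that cut, had 9, 6 and 11 counts in control and 7, 6 and 9 counts in vitamin C wells. It was under the filter on low counts and was not tested. Its level was 0.512, 0.266 and 0.547 CPM in control and 0.519, 0.435 and 0.452 CPM in vitamin C wells, and a difference was not detectable at this depth. The exons of BMP1 share 461 bases with a long non-coding RNA and those of PCOLCE share 562 bases with PCOLCE-AS1, while those of SERPINH1 overlap no other gene.

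**Figure D3:**
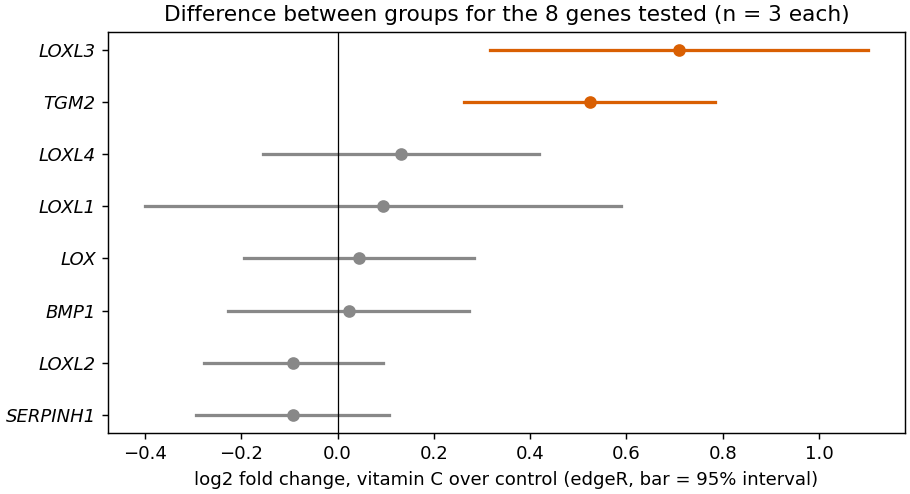
Change from control to vitamin C on the log2 scale, from edgeR, for the 8 genes tested, with bars for the 95% interval, in orange where the adjusted p was under 0.05. The intervals of LOXL3 (0.32 to 1.10) and TGM2 (0.26 to 0.78) lie above 0 and the other 6 include 0.

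The libraries were not uniformly high or low for these genes. Control 1 was the lowest control well for 5 of the 9 genes, and control 2 was the highest control well for 5 of the 9. Vitamin C 2 was the lowest treated well for 5 of the 9, and vitamin C 3 was the highest treated well for 5 of the 9. TGM2, LOX and LOXL2 went the other way in vitamin C 3, where each had its lowest treated value.

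Levels of different genes can be set side by side per kb of transcript. With the longest annotated transcript as the length, the control means in CPM per kb were 88.4 ± 10.8 for TGM2, 68.9 ± 6.68 for LOXL2 and 25.5 ± 1.99 for SERPINH1 (SD, n = 3 each). They were 10.3 ± 1.79 for LOXL4, 7.95 ± 0.312 for LOX and 5.14 ± 0.599 for BMP1. The lowest were LOXL1 with 0.861 ± 0.201, LOXL3 with 0.799 ± 0.0472 and PCOLCE with 0.292 ± 0.101. LOXL4 and LOX, and likewise LOXL1 and LOXL3, overlapped between control wells, and the other neighbours in this order did not. In vitamin C wells the means per kb were 127 ± 19.6 for TGM2, 64.7 ± 3.19 for LOXL2 and 23.9 ± 2.45 for SERPINH1, followed by 11.2 ± 1.39 for LOXL4, 8.24 ± 1.29 for LOX and 5.22 ± 0.561 for BMP1. LOXL3 with 1.29 ± 0.228 then stood above LOXL1 with 0.919 ± 0.149, and their treated wells did not overlap. Percentiles were taken from the level per kb averaged over all 6 libraries, control and vitamin C together. Among 11962 protein-coding genes tested, TGM2 was at percentile 96.6 and LOXL2 at percentile 93.4. SERPINH1 was at percentile 79.1, LOXL4 at 58.7, LOX at 51.3, BMP1 at 40.4, LOXL3 at 14.5 and LOXL1 at 12.8.

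The make-up of the lysyl oxidase transcripts does not depend on how a library is scaled. LOXL2 held 69.7%, 68.8% and 70.1% of the summed level per kb of the 5 lysyl oxidases in control 1, 2 and 3 and 65.4%, 68.8% and 64.6% in the treated wells, here with the union of all exons as the length. LOXL2 in vitamin C 2 was just under the lowest control value, so the groups did not overlap. The means were 69.5% ± 0.664 in control and 66.3% ± 2.21 in vitamin C wells (SD, n = 3 each). The exact two-sided permutation p was 0.1, the smallest that 3 against 3 libraries allow, and 0.3 after Benjamini-Hochberg adjustment over 6 comparisons, so a p under 0.05 was out of reach. LOXL3 held 1.27%, 0.991% and 0.951% in control and 1.41%, 1.70% and 2.14% in vitamin C wells, also without overlap (exact permutation p 0.1, adjusted 0.3). LOXL4 took 16.6% ± 1.35 in control and 18.6% ± 2.57 in vitamin C wells, LOX took 11.8% ± 1.18 and 12.3% ± 1.51, and LOXL1 took 1.06% ± 0.177 and 1.16% ± 0.204 (SD, n = 3 each). Their groups overlapped, with an adjusted exact permutation p of 0.8 each. The family sum was 61.6 ± 6.08 CPM per kb in control and 60.7 ± 2.07 CPM per kb in vitamin C wells (SD, n = 3, adjusted exact permutation p 0.8).

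**Figure D4:**
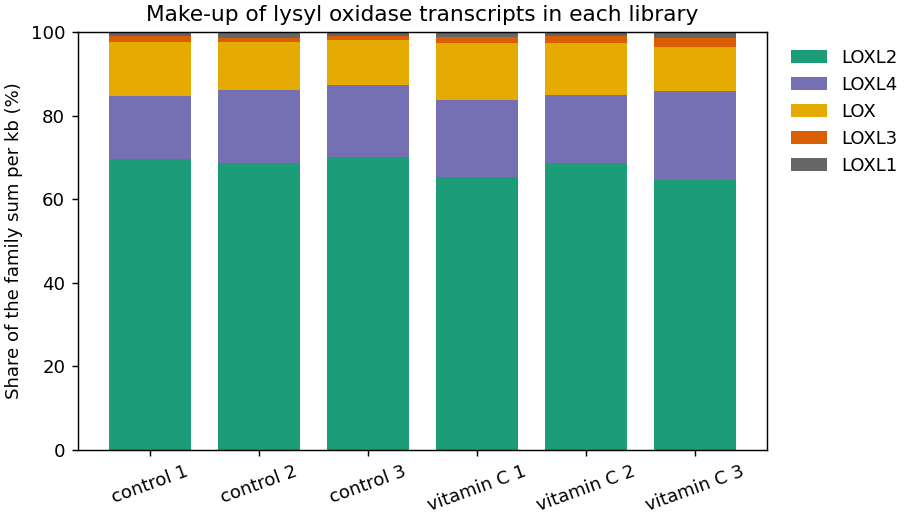
Share of each lysyl oxidase in the summed level per kb of the 5 genes, in percent, as stacked bars for each library. LOXL2 takes 64.6% to 70.1% of every bar, and LOXL3 takes 0.951% to 1.27% in control and 1.41% to 2.14% in vitamin C wells.

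Other genes of the pathway were read from the same fit, in 7 lists by role, with means given ± SD over the 3 wells of a group. Of 9 procollagen proteinases and enhancers, 4 were tested, 0 were called higher and 0 lower by edgeR, 2 were higher and 1 lower at an unadjusted p under 0.05 (14.3% and 13.1% of all genes tested), and DESeq2 called 1 higher. FURIN, which activates BMP1 and related proteinases, was at 70.3 ± 2.52 CPM in control and 81.0 ± 13.4 CPM in vitamin C wells (log2 fold change 0.20, edgeR adjusted p 0.249). ADAMTS14, which removes the N-terminal propeptide, was the gene called by DESeq2. It was at 1.65, 3.29 and 3.93 CPM in control and 5.19, 3.84 and 8.38 CPM in vitamin C wells (log2 fold change 0.98, edgeR adjusted p 0.0741, DESeq2 adjusted p 0.0294), and control 3 lay above vitamin C 2. Of 9 other transglutaminases and relatives, only TGM1 was tested, at 0.547 ± 0.230 CPM in control and 0.643 ± 0.180 CPM in vitamin C wells (edgeR adjusted p 0.763). TGM3, TGM6 and TGM7 had 0 counts in every library.

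Of 18 genes that fold and modify procollagen in the endoplasmic reticulum, 16 were tested, 3 were called lower and 0 higher, each of the 3 by both tools. Of all genes tested, edgeR called 3.48% lower and 3.6% higher. The median log2 fold change of the 16 was -0.11. P4HA1, a catalytic subunit of collagen prolyl 4-hydroxylase, was at 180, 221 and 204 CPM in control and 111, 113 and 115 CPM in vitamin C wells (log2 fold change -0.84, edgeR adjusted p 0.000829). PLOD2, the lysyl hydroxylase of collagen telopeptides, was at 205, 221 and 201 CPM in control and 140, 157 and 155 CPM in vitamin C wells (log2 fold change -0.47, edgeR adjusted p 0.0102). CRTAP, part of the prolyl 3-hydroxylase complex, was at 332, 330 and 316 CPM in control and 276, 248 and 276 CPM in vitamin C wells (log2 fold change -0.29, edgeR adjusted p 0.0403). All treated wells were under all control wells for 4 of the 16 tested genes, these 3 among them, and above all control wells for 2. Over all genes tested the shares were 16.6% and 15.7%. The list had 1 called gene without control 2, 2 without control 1, control 3, vitamin C 1 or vitamin C 2, and 3 without vitamin C 3. In those fits the genes called lower over all genes tested ran from 59 without control 1 to 958 without vitamin C 3, against 531. The next step, export, had 7 of 7 genes tested and 0 called in either direction by edgeR or DESeq2. It had 0 at an unadjusted edgeR p under 0.05, which 27.4% of all genes tested met. SEC23A, a COPII coat subunit, was at 223 ± 6.40 CPM in control and 208 ± 22.9 CPM in vitamin C wells (edgeR adjusted p 0.476), and MIA3, the procollagen cargo receptor TANGO1, was at 169 ± 12.2 and 159 ± 29.7 CPM (edgeR adjusted p 0.692).

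Among the substrates, 2 of 6 tested fibrillar collagen chains of 11 listed were called higher and 0 lower, and the 2 were called by both tools. Over all genes tested, edgeR called 3.6% higher and 3.48% lower. COL1A2, a chain of type I collagen, was at 1.71, 3.64 and 2.83 CPM in control and 9.93, 4.64 and 13.6 CPM in vitamin C wells (log2 fold change 1.78, edgeR adjusted p 0.0192). COL5A1, a chain of type V collagen, was at 59.4, 79.7 and 85.6 CPM in control and 95.4, 99.2 and 117 CPM in vitamin C wells (log2 fold change 0.47, edgeR adjusted p 0.0460). COL1A1, the partner chain of COL1A2, was at 0.794 ± 0.0958 CPM in control and 1.06 ± 0.264 CPM in vitamin C wells and was not called (edgeR adjusted p 0.466); it was chosen after its values were seen. The list had 0 called genes without control 1, 2 without control 3 and 1 without any of the other 4 libraries. In those fits the genes called higher over all genes tested ran from 69 without control 1 to 942 without vitamin C 3, against 549.

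Of 11 elastic fibre and partner proteins, 5 were tested, 3 were called higher and 0 lower, and 2 of the 3 were called by both tools. The edgeR shares over all genes tested were 3.6% higher and 3.48% lower. FN1, which encodes fibronectin, a substrate of TGM2 and a binding partner of LOX, was at 259, 359 and 337 CPM in control and 585, 471 and 614 CPM in vitamin C wells (log2 fold change 0.81, edgeR adjusted p 0.00909). FBN1, the main microfibril protein, was at 31.9, 30.3 and 32.2 CPM in control and 40.5, 39.9 and 39.3 CPM in vitamin C wells (log2 fold change 0.34, edgeR adjusted p 0.0316). LTBP4, which takes part in elastic fibre assembly, was at 9.05, 9.19 and 9.70 CPM in control and 11.8, 12.5 and 13.4 CPM in vitamin C wells (log2 fold change 0.44, edgeR adjusted p 0.0434, DESeq2 adjusted p 0.0645). Of the 5 tested genes, 4 had groups that did not overlap with vitamin C higher, the 3 called genes among them, and 0 with vitamin C lower. Over all genes tested the shares were 15.7% and 16.6%. ELN, which encodes elastin, was not tested, with at most 1 count in any library. The list had 2 called genes without vitamin C 3 and 1 without any of the other 5 libraries. Calls of higher over all genes tested were 942 without vitamin C 3 and 69 without control 1, against 549.

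The copper supply of lysyl oxidases was represented by 5 genes, all tested, with 0 called in either direction by edgeR or DESeq2 and 1 lower at an unadjusted p under 0.05, which 13.1% of all genes tested met. That gene, SLC31A1, the copper importer CTR1, was at 71.9, 64.5 and 61.9 CPM in control and 59.4, 50.7 and 57.3 CPM in vitamin C wells (log2 fold change -0.24, edgeR adjusted p 0.106). ATP7A, which loads copper into enzymes of the secretory pathway, was at 29.8 ± 0.426 CPM in control and 28.9 ± 2.38 CPM in vitamin C wells (edgeR adjusted p 0.813).

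**Figure D5:**
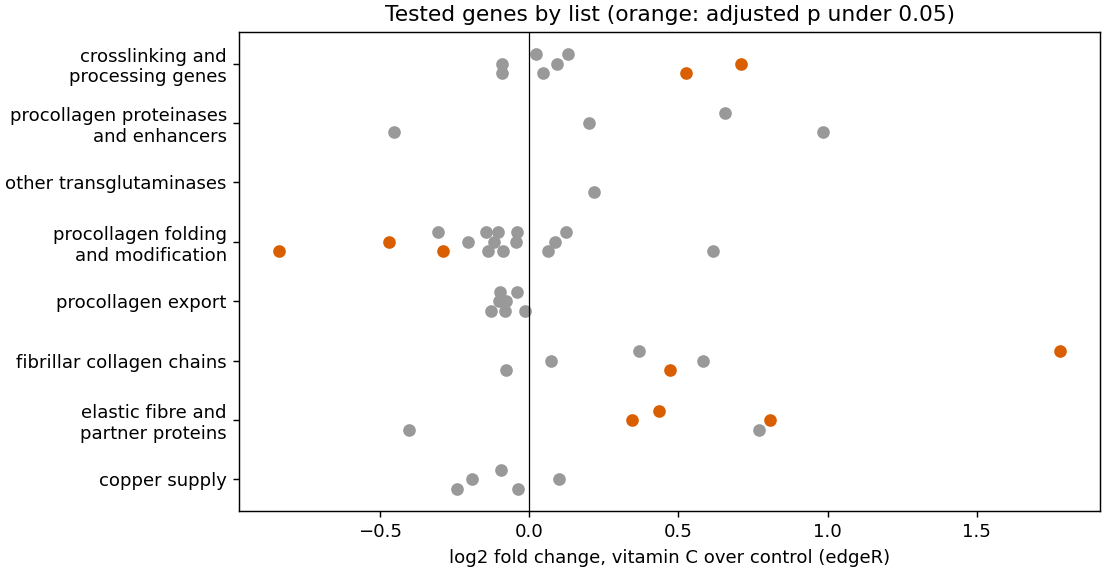
Change from control to vitamin C on the log2 scale, from edgeR, for each tested gene of the 9 genes and of the 7 other lists, one point a gene, in orange where the adjusted p was under 0.05. The called points lie to the right of 0 for crosslinking and processing genes (2), fibrillar chains (2) and elastic fibre proteins (3), and to the left for folding and modification (3).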

How the data were processed

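RNA-seq of 6 libraries of MDA-MB-231 cells was used, 3 control and 3 vitamin C, grouped by the sample labels. Base calls came from CASAVA 1.4, and the submitters' processing notes also name Trim Galore, STAR and build hg38. Per library, the authors deposited unnormalized read counts for Ensembl genes, and 4 summary lines in each file, with 50.6% to 69.7% of the read pairs, were kept out of library sizes and tests. A joint table of the 6 libraries repeated these values and was not used. The sources used here give neither the STAR version nor whether counting used strand. Symbols and positions came from GENCODE 44, which held 56558 of 60675 identifiers, and upstream sequences from RefSeq.

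Counts were tested in R 4.3.3 with edgeR 4.0.16 (TMM factors 0.972 to 1.02, filterByExpr with a minimum count of 10, glmQLFit and glmQLFTest, Benjamini-Hochberg adjustment over 15261 genes, no covariate). The biological coefficient of variation was 9.40%. DESeq2 1.42.0 ran on 33769 genes with at least 1 count. On simulated data for this comparison, 200 genes with a mean count of at least 100 were changed. There edgeR on 15302 genes found 86.6% of the 1.5-fold changes, with 22 false calls among 213. DESeq2 on 31337 genes found 82.1%, with 24 false calls among 212. These percentages do not cover LOXL3, LOXL1 and PCOLCE, whose mean counts were 68.0, 45.0 and 8.0. Intervals are at 95%. Counts of replicates differed by more than sampling noise in every pair (chi-square per degree of freedom 4.99 to 24.3), so no library was counted as a copy of another.

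The members, the gene lists, the tests and the alternatives were chosen with earlier results of these data known. All 9 members were named, and in each other list up to 4 called genes with the smallest p, or the 2 most abundant tested genes where none was called. Alternatives were other scaling factors, filters, edgeR tests, DESeq2, limma-voom (limma 3.58.1), other thresholds, thinning to 13434130 counts, a block, libraries left out and other gene lengths.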

Additional observations from a re-analysis of the deposited data

How the results depend on the processing

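No alternative called any of the 9 genes lower. TGM2 and LOXL3 were both called higher with upper-quartile factors, relative log expression factors or none, without a low-count filter or with a stricter one, by the edgeR likelihood ratio and exact tests, by limma-voom and at a threshold of 0.1. The number called higher was 0 at a threshold of 0.01, 1 by DESeq2, 1 with all libraries thinned to the shallowest, 0 without the library with most unmapped reads in each group, and 0 to 1 with each library left out in turn. The log2 fold change of TGM2 was 0.42 to 0.65 with a library left out and 0.51 without control 2 and vitamin C 2, those with most unmapped reads in each group. That of LOXL3 was 0.69 by DESeq2, 0.71 thinned, 0.73 without those 2 libraries, and 0.55 to 0.81 with a library left out, all short of the threshold. The cause was not tested. DESeq2 and the thinned fit used all libraries, and the other fits in that sentence used fewer.

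Genes that were not called changed sign only with a library left out. LOX was -0.069 without vitamin C 1 (range to 0.16), LOXL1 was -0.033 without control 1 and -0.024 without vitamin C 3 (range to 0.30), and LOXL4 was -0.0070 without control 1 (range to 0.22). BMP1 was -0.069 without control 1 and -0.076 without vitamin C 3 (range to 0.083). Without control 2 and vitamin C 2 the log2 fold change was 0.42 for LOXL1, 0.31 for LOXL4 and 0.14 for BMP1, none of them called. LOXL2 and SERPINH1 kept a negative sign in all 18 alternatives. The stricter filter left LOXL1 out, and PCOLCE was below the filter in most alternatives.

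The labels do not say whether wells with the same replicate number were handled together. Correlations of same-numbered deviations were -0.0160, -0.0556 and -0.0452, and those of differently numbered wells ran from -0.0482 to 0.107. Such values show no visible shared shift but cannot tell how the wells were handled. With the replicate block 1 of the 9 genes was called higher, the LOXL3 log2 fold change was 0.70 (edgeR adjusted p 0.0641), and 338 genes were called lower over all genes tested, against 531.

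Over all genes, 549 were called higher and 531 lower. These became 49 and 34 at a threshold of 0.01, 1256 and 1210 at 0.1, 1079 and 1166 without a filter, 1059 and 923 by the likelihood ratio test and 1022 and 911 by the exact test. DESeq2 called 857 lower. Without the library with most unmapped reads in each group they were 58 and 34, and with each library left out 69 to 942 and 59 to 958, highest without vitamin C 3. Upper-quartile factors called 687 higher and 377 lower, which made 64.6% of calls higher against 50.8%.

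With the union of all exons as the length, the means per kb in control and vitamin C wells became 55.3 and 79.5 for TGM2, 42.8 and 40.2 for LOXL2, 14.3 and 13.4 for SERPINH1, 3.17 and 3.21 for BMP1, 0.659 and 0.704 for LOXL1, 0.653 and 1.06 for LOXL3 and 0.132 and 0.140 for PCOLCE, with 7.22 for LOX in control. The order of the 9 genes was the same. Shares of the lysyl oxidase sum not divided by length became 75.6% and 72.9% for LOXL2, 10.8% and 12.3% for LOXL4 and 0.704% and 0.778% for LOXL1, with 0.879% for LOXL3 in control. Depth limits PCOLCE and, at under 120 counts a library, LOXL3 and LOXL1.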
